A study of Mus musculus with 6 samples.

Results

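The genes S100b, Clstn3, Ngfr, Mbp, Sox10 and Sema3a were examined in inguinal white adipose tissue (iWAT), a fat pad under the skin of the groin. They are genes of the sympathetic nerve supply of fat and of the Schwann cells that wrap its axons, and they were chosen by gene symbol, 6 of the 22564 genes measured. RNA-seq compared 3 samples from mice kept under cold at 4 °C with 3 samples from mice kept at thermoneutrality, 30 °C, each for 7 days. All 6 samples came from mice labelled C57BL/6, described in the study as 2-month-old C57BL/6J males, with no transgene, deletion or drug in either group. The labels do not say whether the samples of a group came from separate mice, so p-values measure only the spread between these samples.

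Sympathetic nerves reach white and beige adipocytes as thin, mostly unmyelinated axons and release noradrenaline, the signal that starts heat production in the cold. Each axon is accompanied by Schwann cells, which either ensheath several thin axons without myelin or wrap a single larger axon in myelin. The cell bodies of the neurons lie in ganglia outside the fat pad, so RNA of a fat pad holds the transcripts of Schwann cells but few of those of the neurons themselves. Adipocytes take part as well. In mice, a short adipocyte protein encoded at the 3′ end of Clstn3, calsyntenin 3β, promotes secretion of S100b, and S100b from thermogenic adipocytes stimulates the growth of sympathetic axons.

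The deposited table gives each gene an FPKM, which is a level per transcript length, and a count that had been scaled to 1 size factor per sample, called the scaled count here. Estimated fragments numbered 15261977 to 23636647 per sample. Scaled counts summed to between 17434977 and 17588754 in each cold sample and to between 19276924 and 19603526 in each thermoneutral sample. The median of the 11650 genes tested lay at a log2 difference of -0.54 between cold and thermoneutral. Therefore each difference is also given after centring every sample on its median gene, which adds 0.53. A gene was tested where its FPKM was at least 1 in at least 3 samples, and it was called at a Benjamini-Hochberg adjusted p under 0.05 in limma. A gene could thus pass through 1 group alone, where it was high.

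The tissue label fit its markers, with summed FPKM of 5 adipocyte markers between 14040 and 36690, and 5 of 5 thermogenic markers such as Ucp1 rose in cold, 4 of 5 without cold replicate 2. There are 2 samples that stand apart. In thermoneutral replicate 1, 6 epithelial markers summed to an FPKM of 838, against 0.334 to 1.72 in the other 5 samples. In cold replicate 2, 7 skeletal muscle markers summed to an FPKM of 7205. The other cold samples had 11.8 and 14.5, and the thermoneutral samples 121 to 336. Calls that are lost without either sample are given with that value.

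S100b and Clstn3 rose in cold, Sox10 fell on the deposited scale but was not called after centring, Mbp was called lower only when thermoneutral replicate 1 was left out, and Ngfr and Sema3a were too low to be tested. Thus 4 of the 6 genes passed the filter on low values, of which 2 were called higher, where 6.24% of all tested genes were called higher, and 1 lower, where 35.2% were. After median centring the counts were 2 higher and 0 lower, against 10.3% and 5.35% of all tested genes. Without thermoneutral replicate 1 they were 2 and 2, against 8.01% and 44.1%. The cold samples lay above every thermoneutral sample for S100b and Clstn3, and below them for Sox10 and Sema3a. Among all tested genes these shares were 9.09% and 52.1%, so a position below the thermoneutral samples was common for any gene.

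**Figure D1:**
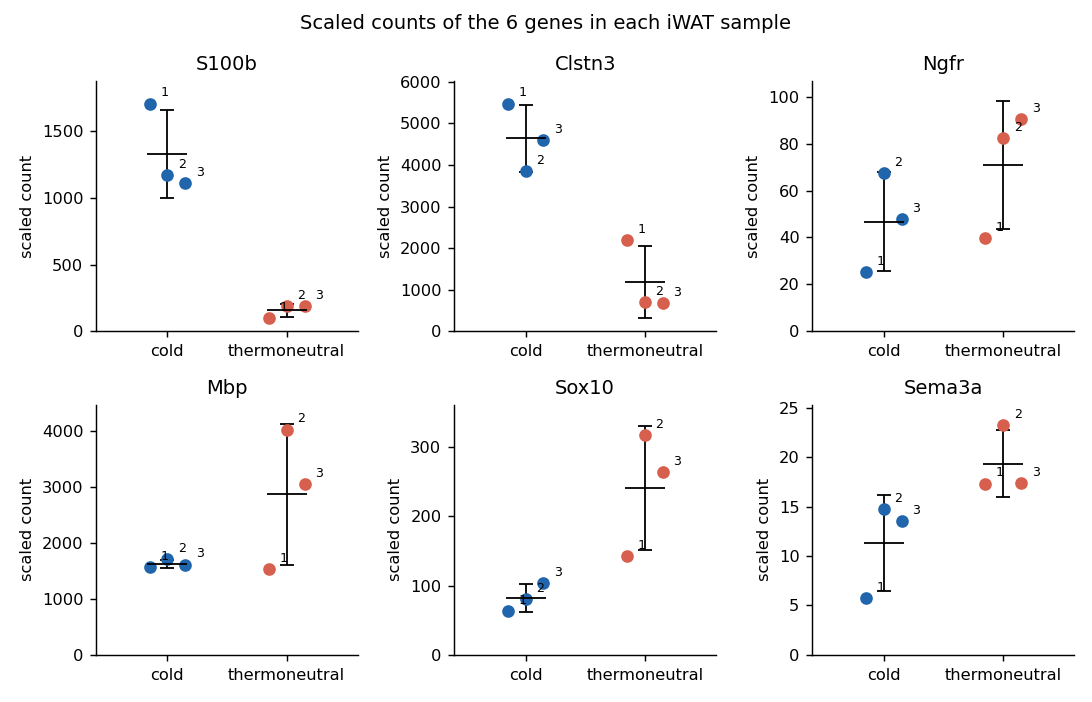
Scaled count (y axes, linear from 0) of each gene in the cold (blue) and thermoneutral (red) samples, with the replicate number beside each point and bars for the mean and SD, n = 3. S100b and Clstn3 lie higher in all 3 cold samples, and thermoneutral replicate 1 is the lowest thermoneutral sample for each gene but Clstn3, for which it is the highest.

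S100b encodes a small calcium-binding protein that is abundant in Schwann cells and astrocytes and is also made by thermogenic adipocytes. Its scaled count was 1707, 1171 and 1111 in cold replicates 1 to 3 and 97.9, 186 and 186 in thermoneutral replicates 1 to 3. The lowest cold sample was thus far above the highest thermoneutral sample, and the spread within each group was small beside the gap. This is a log2 difference of 3.11 ± 0.32 (SE, n = 3 per group; limma adjusted p = 0.0033), and it was 3.64 after centring (adjusted p = 0.0016). On the level per length, S100b stood at an FPKM of 44.7 ± 10.9 (SD) in cold and 5.26 ± 1.70 in thermoneutral samples. Ranked within each sample, this placed it above 84.7% to 88.3% of tested genes in cold and above 19.5% to 33.5% at thermoneutrality. The call held when any 1 sample was left out, with log2 differences of 2.81 to 3.26. In bulk tissue, a change in the number of cells of a type and a change in RNA per cell cannot be told apart.

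Clstn3 encodes calsyntenin 3, a membrane protein that organizes synapses in the brain and whose gene also encodes the short adipocyte protein. The scaled counts were 5475, 3855 and 4599 in cold and 2196, 699 and 672 in thermoneutral samples. All cold samples were above all thermoneutral samples, although thermoneutral replicate 1 lay between the other thermoneutral samples and the cold samples. The log2 difference was 2.18 ± 0.47 (SE, n = 3 per group; limma adjusted p = 0.017), and 2.72 after centring (adjusted p = 0.015). Without thermoneutral replicate 1 it was 2.74 (adjusted p = 0.0015). The adjusted p moved to 0.051 without cold replicate 1 or cold replicate 3, and to 0.057 without thermoneutral replicate 2 or 3, with log2 differences of 1.89 to 2.18. At an FPKM of 168 ± 23.1 (SD) in cold, Clstn3 was the most abundant of the 6 genes per length, and it stood at 46.7 ± 35.1 in thermoneutral samples.

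The other calsyntenin that was tested changed in the opposite direction. Clstn1, a widely expressed member of the family that links vesicles to kinesin motors, had scaled counts of 743, 790 and 747 in cold and 2272, 1839 and 1909 at thermoneutrality. It fell by 1.39 ± 0.16 on the log2 scale (adjusted p = 0.0043) and by 0.86 after centring (adjusted p = 0.020). Clstn2 was under the filter, at scaled counts of 54.8 to 192. The ratio of Clstn3 to Clstn1 within a sample was 7.37, 4.88 and 6.16 in cold and 0.966, 0.380 and 0.352 at thermoneutrality. Such a ratio does not depend on how samples are scaled to each other. The groups did not overlap, and the exact two-sided permutation p of 0.1 is the smallest that 3 against 3 samples can give.

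The table lists S100b with the interval of its neighbour Dip2a, and Clstn3 with an interval shared with 9 other genes. Therefore Dip2a was examined as well, and of the 9 genes Phb2, Lpcat3, Emg1 and C1s. The rest of the 9 were not examined. In GRCm38, S100b lies on chromosome 10 from 76253853 to 76261159, on the plus strand, with 3 exons. Clstn3 lies on chromosome 6 from 124430759 to 124464794, on the minus strand, with 18 exons in its longest model. Neither has an exon that overlaps another gene in the GENCODE M21 annotation. Dip2a, which is next to S100b, differed by 0.20 ± 0.22 (SE; adjusted p = 0.47), and by 0.73 after centring (adjusted p = 0.05). Beside Clstn3, Phb2, a mitochondrial prohibitin, rose by 0.60 (adjusted p = 0.041) and by 1.13 after centring (adjusted p = 0.018). It was not called without cold replicate 2 (adjusted p = 0.065). Lpcat3, a phospholipid-remodelling enzyme, rose by 0.66 (adjusted p = 0.048) and by 1.19 after centring (adjusted p = 0.014). It was called neither without cold replicate 2 (adjusted p = 0.092) nor without thermoneutral replicate 1 (0.50, adjusted p = 0.065). Emg1, a ribosome assembly factor, differed by -0.15 (adjusted p = 0.57) and by 0.39 after centring (adjusted p = 0.29). C1s, a complement protease, differed by -1.91 (adjusted p = 0.0078) and by -1.38 after centring (adjusted p = 0.017). The Clstn3 to Phb2 ratio was 1.00, 0.971 and 1.14 in cold and 0.725, 0.245 and 0.228 at thermoneutrality, and these groups did not overlap (exact permutation p = 0.1).

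The start regions of the pair that rose are shown because both lie before genes that changed in the same direction. They were taken from RefSeq (GRCm38.p6), from 250 bases before to 20 bases after the first base. Start regions of 4 of the 6 genes were examined, those of Mbp and Sox10 not among them. Capitals mark the cAMP response element TGACGTCA, bound by factors that act below adrenergic receptors, and the CCAAT box with its reverse complement ATTGG, a common promoter element. S100b is at chr10:76253586-76253855 on the plus strand, and Clstn3 at chr6:124464765-124465034 on the minus strand, for the upstream one of its 2 start sites.
S100b: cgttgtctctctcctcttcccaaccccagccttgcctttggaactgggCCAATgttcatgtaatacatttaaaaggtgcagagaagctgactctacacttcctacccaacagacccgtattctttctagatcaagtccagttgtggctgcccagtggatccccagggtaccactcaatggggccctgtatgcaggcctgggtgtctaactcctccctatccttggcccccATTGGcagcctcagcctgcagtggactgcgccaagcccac
Clstn3: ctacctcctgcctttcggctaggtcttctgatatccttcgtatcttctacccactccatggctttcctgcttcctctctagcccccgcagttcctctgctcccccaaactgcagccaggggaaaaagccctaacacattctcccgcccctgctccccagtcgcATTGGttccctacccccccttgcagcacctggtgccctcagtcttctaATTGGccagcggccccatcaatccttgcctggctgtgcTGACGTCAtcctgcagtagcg
Both strands were searched. Clstn3 held 1 TGACGTCA, with its first base at position -1 relative to the start site, and 2 CCAAT boxes. S100b held 2 CCAAT boxes and no TGACGTCA. Of 32851 mouse start regions of the same length, 1.73% held TGACGTCA and 35.4% held CCAAT. The estrogen-related receptor element TCAAGGTCA, held by 0.40% of start regions, and the nuclear receptor half-site AGGTCA that it contains, held by 14.96%, were in neither. The palindrome CCCNNGGG of the EBF family, held by 12.5%, began at position -91 in S100b. The core ACAAT of the SOX family, held by 29.1%, was in neither sequence shown, but it was at position -177 before the downstream Clstn3 start site, which held none of the other 5 motifs. These matches are letters in a window and were not tested as sites. Both Clstn3 start sites are those of its full-length models. No start region nearer the 3′ end, where the short adipocyte protein is encoded, was examined.

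Since the 2 kinds of value differ by a transcript length, the length that a gene was assigned in each sample could be read back from them. For 467 genes with 1 annotated transcript the median difference from the annotation was 0.69 to 1.28 bases per sample, although 67.9% to 68.3% of them were within 1%. S100b came back as 1484 to 1485 bases in every sample, where its annotated transcript has 1484. Clstn3 came back as 1334 to 1462 bases in cold and 1285 to 1318 bases at thermoneutrality. Its full-length coding models have 3703 and 4014 bases and its other annotated models 366 to 765, so in both groups the value lay well below the full-length models. The table has 1 value for the gene, so the short adipocyte form and the synaptic form were not measured separately.

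**Figure D2:**
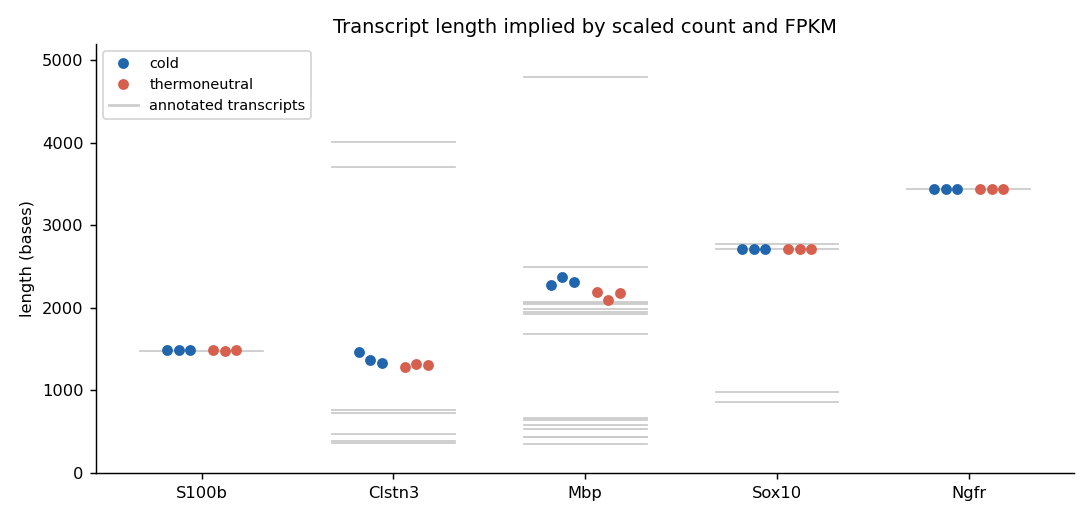
Transcript length in bases (y axis, linear) read back from the scaled count and FPKM of 5 of the genes in cold (blue) and thermoneutral (red) samples, with grey lines for the annotated transcripts. The S100b, Sox10 and Ngfr values sit on an annotated length, those of Clstn3 lie between its short and full-length models, and those of Mbp are higher in cold.

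Turning to Schwann cells, Sox10, the transcription factor that specifies and maintains them, had scaled counts of 62.8, 80.8 and 103.9 in cold and 143, 317 and 264 at thermoneutrality. Every cold sample was below every thermoneutral sample, with thermoneutral replicate 1 nearest to the cold samples. The log2 difference was -1.49 ± 0.34 (SE, n = 3 per group; limma adjusted p = 0.019). After centring it was -0.96 ± 0.32 and not called (adjusted p = 0.093). Leaving out cold replicate 1, thermoneutral replicate 2 or thermoneutral replicate 3 moved the adjusted p to 0.055, 0.064 and 0.066. Without thermoneutral replicate 1 the difference was -1.83 (adjusted p = 0.0049), and -1.27 when these samples were also centred (adjusted p = 0.013). Sox10 was a low-abundance gene, at an FPKM of 1.44 ± 0.36 (SD) in cold and 4.20 ± 1.55 at thermoneutrality.

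Mbp encodes myelin basic protein, a structural component of compact myelin. Its scaled counts were 1567, 1707 and 1613 in cold and 1532, 4023 and 3056 at thermoneutrality. The 3 cold samples were nearly equal, while thermoneutral replicate 1 lay below all of them and the other thermoneutral samples lay far above, so the groups overlapped. The log2 difference was -0.71 ± 0.35 (SE, n = 3 per group; limma adjusted p = 0.14), and -0.17 after centring (adjusted p = 0.76). Without thermoneutral replicate 1 it was -1.11 (adjusted p = 0.0065). The length read back for Mbp was 2273 to 2371 bases in cold and 2100 to 2194 bases at thermoneutrality, without overlap. Mbp-201, which runs from the upstream start to the 3′ end of the gene, has 2492 bases. Models from the downstream start to that end have 1922 to 2070. Other coding models, which end earlier, have 1685 and 4797 bases from the upstream start and 354 to 638 from the downstream start. The table gives the transcripts of both starts 1 value.

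Ngfr, the p75 neurotrophin receptor carried by immature and non-myelinating Schwann cells and by sympathetic neurons, was near the limit of detection. It had scaled counts of 25.1, 67.5 and 47.8 in cold and 39.8, 82.3 and 90.4 at thermoneutrality, which correspond to 22 to 64 and 39 to 109 fragments. The groups overlapped, and 2 of 6 samples reached an FPKM of 1. The log2 difference was -0.61 ± 0.49 (SE; exact permutation p = 0.3), and -0.08 after centring. The samples of a group differed by up to 2.69 times, from 22 fragments (exact 95% Poisson interval 13.8 to 33.3) in cold replicate 1 to 64 (49.3 to 81.7) in cold replicate 2, which is more than counting error. No difference between the groups was detected beyond this spread.

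Sema3a, a secreted semaphorin that repels growing axons, was lower still, with scaled counts of 5.71, 14.8 and 13.5 in cold and 17.3, 23.2 and 17.4 at thermoneutrality. The cold samples were all below the thermoneutral samples, but cold replicate 2 rested on 14 fragments, with a Poisson interval of 7.65 to 23.5, and thermoneutral replicate 1 on 17, with an interval of 9.90 to 27.2. These intervals cover counting error only. On the log2 scale they differed by -0.81 ± 0.38 (SE; exact permutation p = 0.1), and -0.27 after centring. No sample reached an FPKM of 1. The FPKM of thermoneutral replicate 1, 0.603, was above the 0.220 to 0.269 of the other thermoneutral samples although its scaled count was not, and the length read back there was 1443 bases, against 3674 to 5148 in the other samples.

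S100b was the one gene of the Schwann cell and myelin lists that was called higher. In the list of Schwann cell identity genes, 7 of 14 were tested, of which 1 rose and 3 fell, with a median log2 difference of -1.49 beside -0.54 for all tested genes. The 3 are 42.9% of those tested, against 35.2% of all tested genes, and the 1 is 14.3%, against 6.24%. After centring, 2 were called lower (28.6%, against 5.35%). Without thermoneutral replicate 1 it was 5 (71.4%, against 44.1%), and without cold replicate 2 it was 3 (42.9%, against 22.6%). L1cam, an adhesion molecule of axons and non-myelinating Schwann cells, fell by 1.40 (adjusted p = 0.0067; 0.019 after centring). Scn7a, a sodium channel relative found in non-myelinating Schwann cells, fell by 1.72 (adjusted p = 0.012; 0.042 after centring). Sox10 was the other gene that fell. Macrophage and fibroblast markers were also lower in cold, 4 of 4 and 5 of 5 tested genes, where 35.2% of all tested genes were called lower. After centring these counts were 3 and 4, where 5.35% were. Summed FPKM was 128 to 196 in cold against 312 to 497 for macrophages, and 178 to 213 against 489 to 872 for fibroblasts. The part of these cell types in these results was not tested.

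In the list of myelin genes, 13 of 15 were tested, of which 0 rose and 4 fell, with a median of -0.89 beside -0.54 for all tested genes. The 4 are 30.8% of those tested, under the 35.2% of all tested genes. They included Cnp, a myelin enzyme (-0.96, adjusted p = 0.024), Ncmap, a protein of non-compact myelin (-1.62, adjusted p = 0.026), and Drp2, a scaffold protein of the Schwann cell surface (-1.29, adjusted p = 0.035). After centring, 0 of the 13 were called. Without thermoneutral replicate 1, 12 of the 13 (92.3%) were called lower, against 44.1% of all tested genes, with a median of -1.17 beside -0.57, and 4 of them when these samples were also centred. Without cold replicate 2 only Cnp was called, 7.69% of the list against 22.6% of all tested genes. Thermoneutral replicate 1 was below both other thermoneutral samples for 12 of the 13 myelin genes, against 55.5% of all tested genes. Summed marker FPKM of most other cell types was lower there too. Adipocyte markers were at 14040 against 26450 and 26520, and endothelial at 93.6 against 186 and 171. Smooth muscle markers were at 63.9 against 124 and 110, and fibroblast at 489 against 846 and 872. Thermogenic and epithelial markers were higher there, and skeletal muscle markers lay between. A low position in this sample was thus not particular to myelin genes. In the same sample, Egr2 (677, against 53.1 and 57.1) and Erbb3 (1553, against 148.5 and 185) were above the other thermoneutral samples. The part of the epithelial markers of this sample in these values was not tested.

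**Figure D3:**
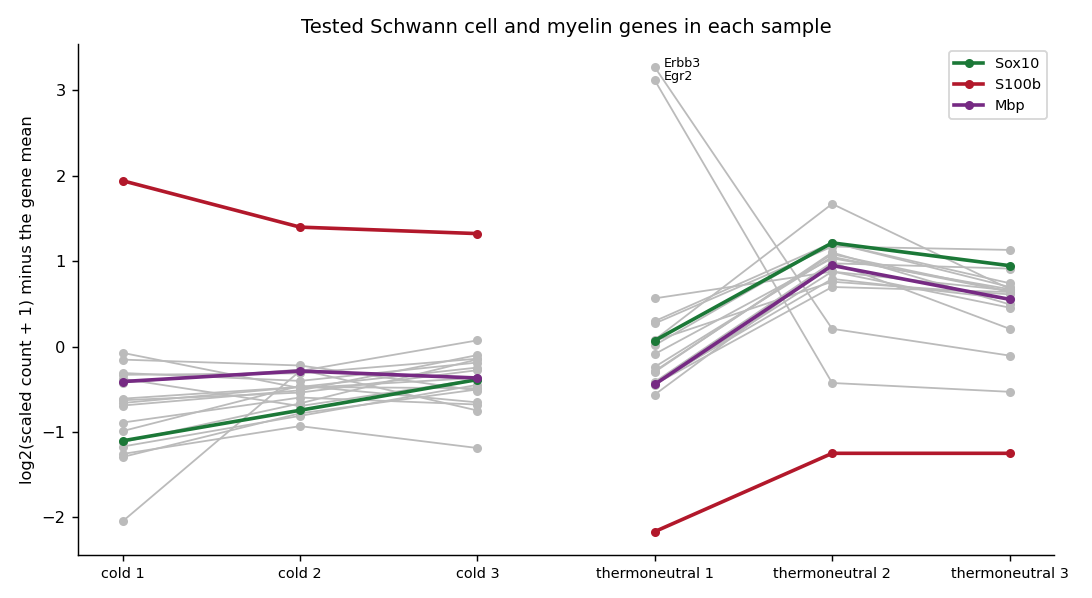
Log2 scaled count of the tested Schwann cell and myelin genes in each sample, relative to the mean of that gene (y axis), with 1 line per gene and the samples along the x axis. S100b is the one gene with all cold samples above all thermoneutral samples, and in thermoneutral replicate 1 most other genes lie below the other thermoneutral samples, Erbb3 and Egr2 far above.

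Ratios of 2 genes within a sample were compared because no scaling between samples enters them. The ratio of S100b to Sox10 was 27.2, 14.5 and 10.7 in cold and 0.684, 0.585 and 0.705 at thermoneutrality, a log2 difference of 4.62. The thermoneutral samples, replicate 1 included, were within 1 narrow range. S100b was also higher in cold relative to Dip2a, at 1.14 to 2.84 against 0.149 to 0.265, and to S100a1, at 0.221 to 0.240 against 0.0243 to 0.0396. The ratio of S100b to Mbp was 1.09, 0.686 and 0.689 in cold against 0.0639, 0.0462 and 0.0608. Sox10 was lower in cold relative to Mbp, at ratios of 0.0401 to 0.0644 against 0.0789 to 0.0934. Of the 13 ratios computed, of which 5 are not reported here, 11 did not overlap between the groups, each with an exact permutation p of 0.1 (0.118 after Benjamini-Hochberg adjustment over the ratios). The groups overlapped for S100b to Clstn3, at 0.242 to 0.312 in cold and 0.0446, 0.266 and 0.277 at thermoneutrality, with thermoneutral replicate 1 far below the rest.

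**Figure D4:**
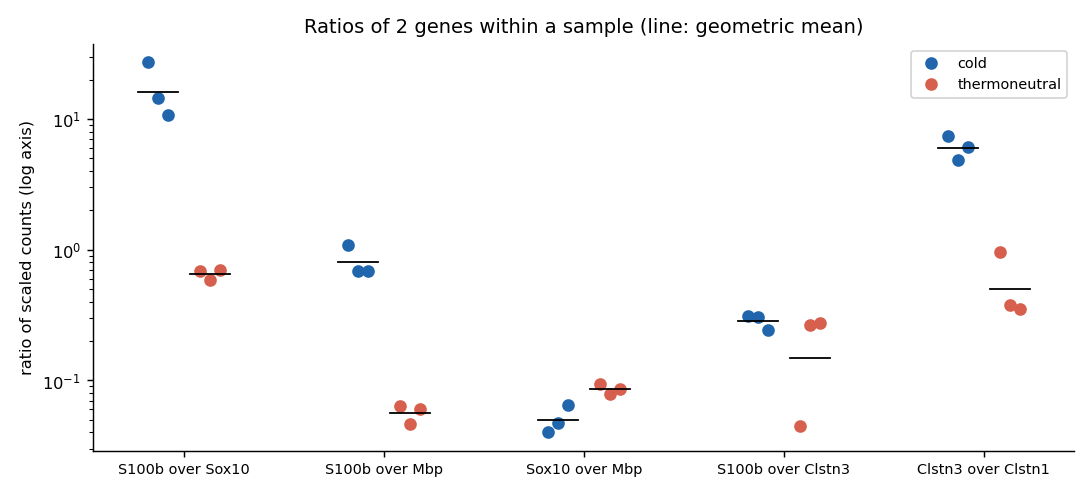
Ratio of the scaled counts of 2 genes within each cold (blue) and thermoneutral (red) sample, on a log axis, with a line at the geometric mean. The S100b to Sox10 ratio lies between 10.7 and 27.2 in cold and between 0.585 and 0.705 at thermoneutrality, while the S100b to Clstn3 ratios overlap.

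For each tested gene of the 6, the 3 genes with the most similar pattern over the 6 samples were taken, by the root mean square difference of log2 values. For S100b these were Tmem37 (0.12), Plin5 (0.16), a lipid droplet protein of oxidative tissues, and Letmd1 (0.18), a mitochondrial protein of brown fat, and for Clstn3 they were Ankrd9 (0.20), Impa2 (0.21) and Maff (0.26). The 3 genes of Clstn3 shared its high value in thermoneutral replicate 1, as for Impa2 with scaled counts of 621 there and 154 and 119 in the other thermoneutral samples. For Mbp they were Cyp2j9 (0.07), Snai1 (0.09) and Vill (0.10), and for Sox10 Tshz2 (0.12), Ehbp1 (0.12) and Kdelc2 (0.12). None of these 12 genes was in the Schwann cell or myelin lists. The 5 thermogenic markers, which summed to an FPKM of 4239 to 5543 in cold and 73.0 to 121 at thermoneutrality, were higher in the same samples as S100b, and their part in its level was not tested. Melanocytes, which also express S100b and Sox10, gave summed FPKM of 1.23 to 2.51 over 5 markers in all 6 samples.

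Of 15 genes of the S100 family and its receptor Ager, 10 were tested, of which only S100b rose and 2 fell, S100a6 (-0.89, adjusted p = 0.043) and S100a4 (-0.77, adjusted p = 0.045), neither of which was called after centring or without cold replicate 2 (adjusted p = 0.11 and 0.097). The 2 are 20% of those tested, against 35.2% of all tested genes. S100a13, which takes part in the release of growth factors, differed by 0.85 (adjusted p = 0.061) and was called higher after centring, at 1.38 (adjusted p = 0.033). S100a1, a family member known from muscle, had scaled counts of 4883 to 7721 in cold and 4034 to 4783 at thermoneutrality, just below the cold samples. Its log2 difference was 0.34 (adjusted p = 0.25), and 0.88 after centring (adjusted p = 0.067). S100a14, an epithelial S100 protein, was at 3594 in thermoneutral replicate 1 and at 1.06 to 9.12 in the other samples.

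Transcripts of the sympathetic neurons themselves were barely present. Of 11 genes of noradrenergic neurons, 0 passed the filter, and scaled counts ranged from 0 to 31.5. Th and Dbh, which encode enzymes that make noradrenaline, were listed at 0 in all 6 samples. Of 15 axon and synapse genes, 3 were tested and 0 were called, with a median of -0.35. Of all tested genes, 6.24% were called higher and 35.2% lower. Syp, a synaptic vesicle protein, differed by -0.15 (adjusted p = 0.73) and Stmn2, a growth cone protein, by -0.35 (adjusted p = 0.42), and both were positive after centring, at 0.38 and 0.18.

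Among neurotrophic factors and receptors, 11 of 22 were tested, of which 2 rose (18.2%, against 6.24% of all tested genes) and 6 fell (54.5%, against 35.2%), with a median of -1.22 beside -0.54. Nrtn, the ligand neurturin, had scaled counts of 94.8, 34.8 and 44.7 in cold and 20.4, 8.71 and 9.12 at thermoneutrality, so that all cold samples were higher. It rose by 2.07 (adjusted p = 0.018; 0.018 after centring), and the adjusted p moved to 0.062 and 0.061 without thermoneutral replicate 2 or 3. Its mean FPKM was 3.0 in cold and 0.66 at thermoneutrality, so it passed the filter mainly through the cold samples. Gfra2, the co-receptor for neurturin, was at 46.7 to 75.9 in cold and 128 to 246 at thermoneutrality. It fell by 1.66 (adjusted p = 0.012; 0.042 after centring), whereas Ret, the signalling receptor of this family, fell by 1.29 (adjusted p = 0.017) and was not called after centring (adjusted p = 0.095). Mean FPKM in cold was 0.82 for Gfra2 and 0.77 for Ret, against 2.65 and 1.94 at thermoneutrality. Both thus passed the filter mainly through the thermoneutral samples. Without the filter their limma adjusted p was 0.032 and 0.041. Sort1, the sorting receptor that pairs with Ngfr, fell by 1.00 (adjusted p = 0.015) and was not called after centring (adjusted p = 0.15). After centring, 2 of the 11 were called higher (18.2%, against 10.3% of all tested genes) and 1 lower (9.09%, against 5.35%). The count called lower was 3 without cold replicate 2 (27.3%, against 22.6%), and 1 was called higher, where 497 of all 11650 tested genes were.

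Among semaphorins, their receptors and other guidance genes, 13 of 21 were tested, of which 0 rose and 4 fell (30.8%, against 35.2% of all tested genes), with a median of -0.66 beside -0.54. Plxna3, a plexin that transmits class 3 semaphorin signals, had scaled counts of 42.3, 52.7 and 26.0 in cold and 348, 245 and 316 at thermoneutrality, without overlap. It fell by 2.92 (adjusted p = 0.0033; 0.0043 after centring). Its mean FPKM was 0.57 in cold and 4.55 at thermoneutrality, so it passed the filter mainly through the thermoneutral samples. Without the filter its limma adjusted p was 0.014. Slit3, a secreted guidance cue, fell by 2.15 (adjusted p = 0.0072; 0.014 after centring). Sema3b (-1.45, adjusted p = 0.015) and Plxna1 (-0.79, adjusted p = 0.025) were not called after centring. Nrp1, the receptor subunit that binds Sema3a, differed by -0.55 (adjusted p = 0.16), and by -0.02 after centring (adjusted p = 0.98). Without thermoneutral replicate 1, 9 of the 13 (69.2%) were called lower, against 44.1% of all tested genes.

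Among genes of catecholamine clearance, 6 of 7 were tested, of which 1 rose and 1 fell (16.7% each, against 6.24% and 35.2% of all tested genes). Slc22a2, an organic cation transporter, was at 104, 100.2 and 84.1 in cold and 4.08, 19.4 and 15.8 at thermoneutrality, without overlap. It rose by 3.01 (adjusted p = 0.0098; 0.0065 after centring). Its mean FPKM was 2.19 in cold and 0.30 at thermoneutrality, so it passed the filter only through the cold samples. Without the filter its limma adjusted p was 0.029. Maoa, a monoamine oxidase, fell by 0.79 (adjusted p = 0.021) and was not called after centring (adjusted p = 0.40) or without cold replicate 2 (adjusted p = 0.062). Over all 9 lists, 63 of 119 genes were tested, of which 5 rose (7.94%) and 21 fell (33.3%), near the 6.24% and 35.2% of all tested genes. After centring 6 were called higher and 6 lower (9.52% each), against 10.3% and 5.35%. The number called lower was 40 (63.5%, against 44.1%) without thermoneutral replicate 1 and 12 (19.0%, against 22.6%) without cold replicate 2.

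**Figure D5:**
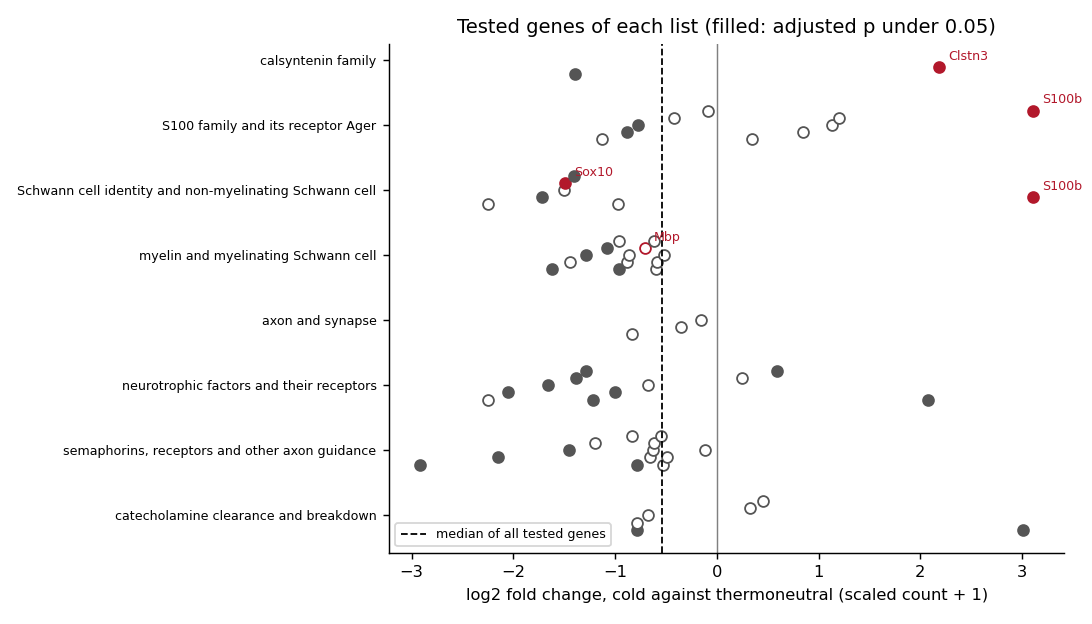
Log2 difference between cold and thermoneutral (x axis, log2 of scaled count plus 1) of the tested genes of each list, with filled points for an adjusted p under 0.05, the genes described first in red, and a dashed line at the median of all tested genes, -0.54. S100b (3.11) and Clstn3 (2.18) lie to the right of their families, and Sox10 (-1.49) lies among the other Schwann cell genes.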

How the data were processed

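RNA-seq values of iWAT were analysed in 3 cold and 3 thermoneutral samples, whose columns were matched to the labels by initial and number. Bowtie 0.12.2, mm8 and mm10 are listed in the submitters' processing notes, with no role given, and positions in the table are those of GRCm38. The FPKM values were deposited as the authors normalized them, to transcript length and library size. The deposited count columns are a scaled signal, not raw counts: fragment estimates that the authors divided by 1 size factor per sample. Some values are model estimates that are not whole fragments, and edgeR and DESeq2 were not run. Fragments per sample were estimated from the most frequent smallest step.

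The 11650 genes that reached an FPKM of 1 in 3 or more samples were compared with limma 3.58.1 (R 4.3.3). A pseudocount of 1 was added to the scaled count before log2 was taken, and p-values were adjusted by Benjamini-Hochberg over these genes. The log2 differences understate the change of low genes. For single values, an exact two-sided permutation test over samples was used, which cannot go below 0.1. Of several entries with 1 symbol (79 symbols), that with the highest mean was used. All 6 genes were named, with up to 4 called genes of smallest adjusted p per list, or up to 2 of highest mean where none was called, and the 3 most similar genes. The members and lists were chosen with earlier results of these data known. The ratios, the lengths read back, the motifs and the other named genes (Clstn2, Dip2a and the neighbours of Clstn3, Egr2, Erbb3, Nrp1, Nrg4, S100a1, S100a13, S100a14, Ntrk2, Th and Dbh) were chosen after their values were seen. Values of some list genes are not reported here. In all, 18 settings were run, 3 of them chosen after seeing the data. Other steps used Python 3.11.15 with pandas 2.3.3.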

Additional observations from a re-analysis of the deposited data

How the results depend on the processing

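S100b kept its direction and its call in all settings run, with log2 differences of 2.81 to 3.26 when 1 sample was left out. Leaving out 1 sample gave 1.89 to 2.74 for Clstn3, -1.83 to -1.26 for Sox10, -1.11 to -0.41 for Mbp, -0.98 to -0.23 for Ngfr and -1.03 to -0.41 for Sema3a. Sox10 was not called after median centring (-0.96, adjusted p = 0.093; without the filter 0.16) or quantile normalization (-0.87, adjusted p = 0.12). Mbp was called without cold replicate 2 and thermoneutral replicate 1 together (-1.14, adjusted p = 0.015), where Clstn3 was at 2.87. Sema3a was at -0.29 on the FPKM scale and -0.27 after centring. The cause of these changes was not tested.

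Of all tested genes, 727 were called higher and 4097 lower. Leaving out 1 sample gave 373 to 933 higher and 1061 to 5134 lower genes. Centring gave 1200 higher and 623 lower, 321 lower without the filter, and 1686 higher and 1245 lower without thermoneutral replicate 1. Quantile normalization gave 704 lower. In the lists, 5 genes were called higher and 21 lower. Leaving out 1 sample gave 2 to 5 and 6 to 40. Centring gave 6 lower, 2 lower without the filter, and 8 higher without thermoneutral replicate 1. Quantile normalization gave 7 lower, and leaving out both samples that stand apart 38 lower. Syp and Stmn2, not called, turned positive after centring (0.38 and 0.18), with or without the filter, and after quantile normalization (0.41 and 0.24). Leaving out 1 sample gave -0.54 to 0.042 for Syp, positive without thermoneutral replicate 2 or 3, and Syp was also positive when centred without replicate 1 (0.02).

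A replicate number as a block gave 568 higher and 3140 lower genes and kept the calls of S100b (3.11, adjusted p = 0.027), Clstn3 (2.18, adjusted p = 0.029) and Sox10 (-1.49, adjusted p = 0.029). Deviations of samples with the same number correlated at -0.004, 0.038 and 0.066, and those with different numbers at -0.058 to 0.01. With 3 samples per group, these values cannot decide whether the numbers pair samples. The edgeR and DESeq2 alternatives were not run, because whole fragments were not recovered. Few fragments stand behind Ngfr, 22 to 109 a sample, and Sema3a, 5 to 24, and within a group Ngfr varied by more than counting error. The filters, centring and left-out samples named as chosen after seeing the data are centring without the filter, centring without thermoneutral replicate 1, and leaving out cold replicate 2 with it.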

Other observations

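Nrg4, a factor secreted by brown and beige adipocytes, was the other neurotrophic gene that rose in cold. Its scaled counts were 2189, 2295 and 2634 in cold and 1431, 1855 and 1470 at thermoneutrality, and the groups did not overlap. The log2 difference was 0.59 ± 0.18 (SE, n = 3 per group; limma adjusted p = 0.040), and 1.12 after centring (adjusted p = 0.0097). The call was lost without thermoneutral replicate 1 (0.52, adjusted p = 0.052) and without cold replicate 2 (0.61, adjusted p = 0.088). Ntrk2, the receptor of brain-derived neurotrophic factor, was at 2724 to 3357 in cold and 4656 to 9086 at thermoneutrality. It fell by 1.22 (adjusted p = 0.019) and was not called after centring (adjusted p = 0.14) or without cold replicate 2 (adjusted p = 0.053).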
